A study of Homo sapiens with 9 samples.

Results

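The 46 genes described here encode proteins that make or assemble ribosomes in the nucleolus, and they were taken from a list of gene symbols. The list uses no measured value in its rule, but it was drawn up with earlier results of these data known. They are 46 of the 16199 genes listed in at least 1 library. All 46 were listed in all 9 libraries and passed the count filter that left 12394 genes for testing. They were measured in HaCaT cells, an immortalized human keratinocyte line, of which 3 groups of 3 libraries were sequenced. Untreated cells were compared with cells given epidermal growth factor (EGF) at 10 nM for 24 h and with cells given bleogen pB1 at 1 µM for 24 h. Bleogen pB1 is a cysteine-rich peptide from the cactus Pereskia bleo that acts as an agonist of the EGF receptor. In all groups, the cells had grown past confluence and were kept in medium without serum. The libraries come from a single immortalized line, and the labels name the replicates without saying that they are separate cultures, so the p-values measure the spread between these libraries.

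Ribosomes are built in the nucleolus. RNA polymerase I transcribes the precursor of the ribosomal RNA there, small nucleolar ribonucleoproteins (snoRNPs) guide its chemical modification, and large assemblies of proteins fold and cut it while ribosomal proteins are added. The small (40S) and large (60S) subunits then mature along separate routes to the cytoplasm. Growth factors that drive cell growth, EGF among them, are known to raise ribosome production, and the transcription factor MYC, which binds the E-box CACGTG together with its partner MAX, is a known activator of many of these genes.

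Short promoter sequences are shown because a MYC-type E-box recurs in them. RefSeq promoter windows, from 250 bases before to 50 bases after the start of transcription on GRCh38.p14, were matched for 38 of the 46 genes; those without a matched window were NOP58, NOLC1, POLR1E, RRP12, DDX52, RRP1B, RRS1 and BOP1. The letters CACGTG, which read the same on both strands, stood in a window of 17 of the 38 genes (44.7%). They stood in 12.5% of the 10169 tested genes with a window. Counted by window, they stood in 40% of the windows of these genes, 9.18% of the windows of tested genes and 7.26% of all 35116 windows. Of the 18 E-boxes, 16 began within 50 bases of the start, a position that was not counted in the windows of all tested genes. Genes with more than 1 window have more chances of a match, and among genes with a single window the shares were 41.9% (13 of 31) and 10.4% (743 of 7173). FBL, GNL3, NAT10, NOC3L, PES1 and UTP20 also hold an E-box within 50 bases of the start. They were not called higher with EGF by the rule given further below and are not shown. The stretches below are those of the 10 genes that were called higher with EGF and hold an E-box within 50 bases of the start. Each runs 5′ to 3′ on the strand of the gene, with the E-box in capitals.
BYSL: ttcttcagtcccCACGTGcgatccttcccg
DDX21: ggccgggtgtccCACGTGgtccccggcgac
EBNA1BP2: gcgattcggtggCACGTGga
GAR1: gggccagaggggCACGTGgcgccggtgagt
LTV1: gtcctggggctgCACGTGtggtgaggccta
MYBBP1A: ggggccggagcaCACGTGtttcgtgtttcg
NOP14: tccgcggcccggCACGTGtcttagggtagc
NOP2: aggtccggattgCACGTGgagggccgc
RRP9: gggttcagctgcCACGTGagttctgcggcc
WDR43: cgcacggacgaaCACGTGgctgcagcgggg
The BYSL stretch is at chr6:41921515-41921544 on the plus strand, that of DDX21 at chr10:68956604-68956633 (plus), and that of EBNA1BP2 at chr1:43172241-43172260 (minus). The GAR1 stretch is at chr4:109815781-109815810 (plus), that of LTV1 at chr6:143843354-143843383 (plus), and that of MYBBP1A at chr17:4555340-4555369 (minus). The NOP14 stretch is at chr4:2963374-2963403 (minus), that of NOP2 at chr12:6568242-6568268 (minus), that of RRP9 at chr3:51941892-51941921 (minus), and that of WDR43 at chr2:28894658-28894687 (plus). Counted from the start base, the E-box of DDX21 began 31 bases upstream (position -31) and that of RRP9 at position -5. The other 8 began 3 to 42 bases downstream of the start, in transcribed sequence.

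The rise with EGF was of like size with and without an E-box, a comparison given without a test. The median log2 fold change with EGF was 0.56 for the 17 genes with an E-box (range 0.22 to 1.01) and 0.58 for the 21 without (range -0.16 to 0.89). Other short motifs were nearer to the share of all tested genes. The GC box GGGCGG was found on either strand in 78.9% of the matched genes against 76.8% of tested genes, the ETS core CGGAAG in 50% against 38.9%, and the letters TATAAA in 5.26% against 8.6%. A match describes letters in a window and does not show that a factor was bound.

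The libraries were alike in depth, with 20288417 to 21320994 expected counts each. All 16 keratinocyte markers looked up, among them KRT5 and KRT14, reached an FPKM of at least 1 in every library. None of the 20 markers of fibroblasts, melanocytes, endothelial cells or leukocytes did so in any library. Their summed FPKM was at most 1.36 for any of these cell types in any library. Levels here are shares of the sequenced RNA, so a change in the amount of RNA per cell cannot be told apart from an equal change of all genes.

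Most of the nucleolar genes were higher after EGF. A gene was called changed, as a differentially expressed gene (DEG), at an adjusted p of at most 0.05 in edgeR's quasi-likelihood test and an absolute log2 fold change of at least 0.5. By this rule, 30 of the 46 genes (65.2%) rose with EGF, against 15.1% of all tested genes, and none fell, against 21.8%. At the adjusted p alone 42 were higher (32.4% of all tested genes) and 0 were lower (33.6%). No gene was lower at an unadjusted p under 0.05 either, against 35.2% of tested genes, and DESeq2 called none lower. The median log2 fold change was 0.59 (1.5-fold), while that of all tested genes was -0.01. In 43 of the 46 genes all 3 EGF libraries lay above all 3 untreated ones, as they did in 34.5% of tested genes. An exact permutation test of 3 against 3 libraries cannot give a p under 0.1. Any gene whose groups do not overlap has that value by construction, so the test adds nothing to the count of 43.

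**Figure D1:**
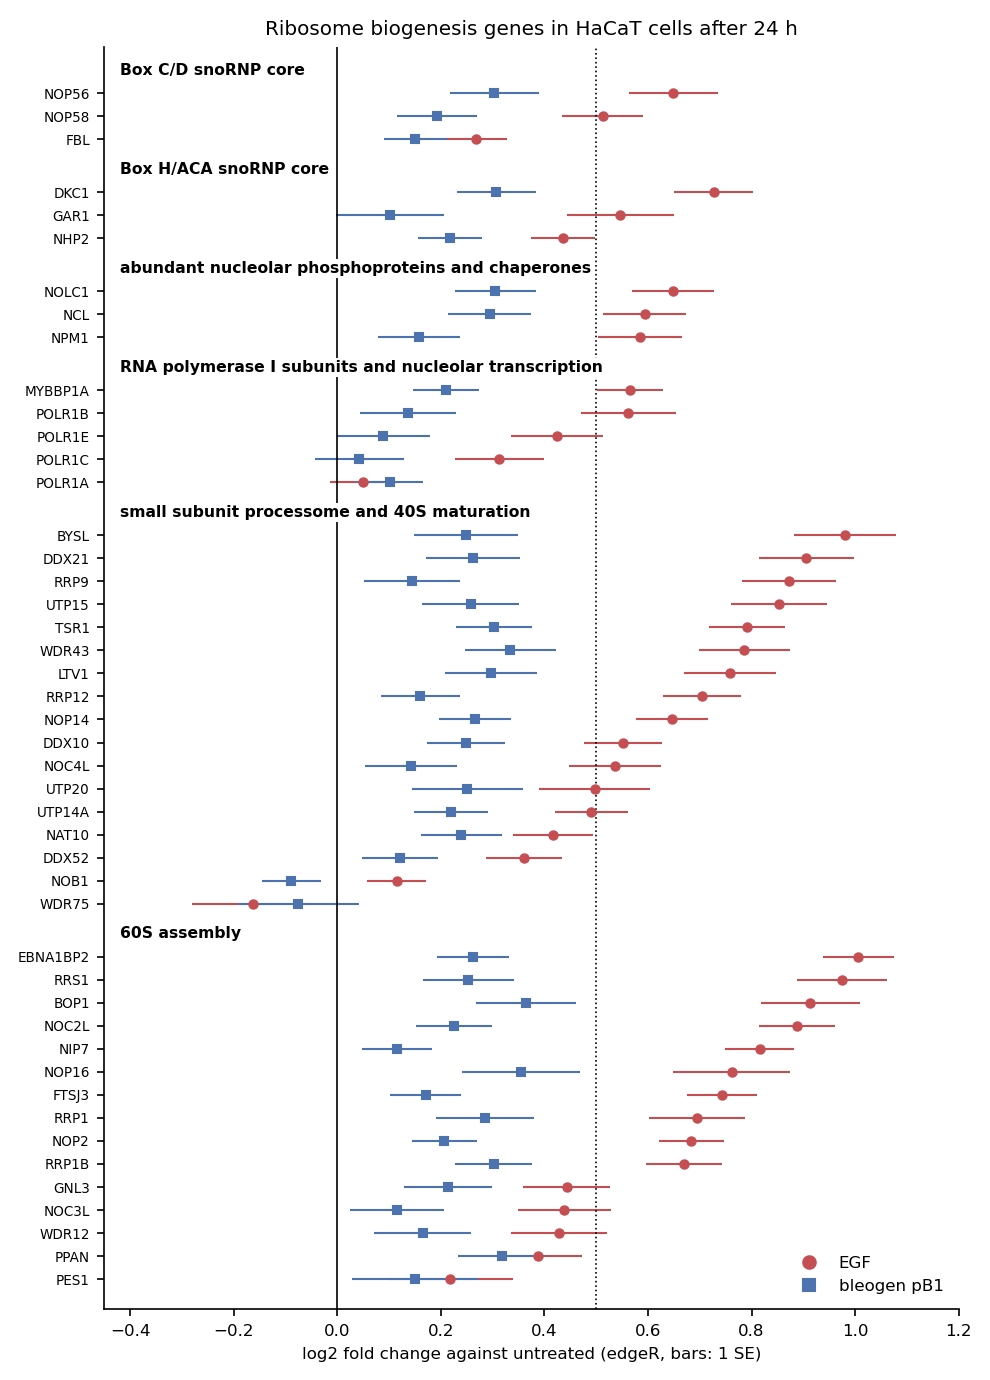
Log2 fold change against untreated cells for each of the 46 genes, grouped by role, for EGF (red circles) and bleogen pB1 (blue squares), with bars of 1 SE from the edgeR fit and a dotted line at 0.5. The EGF points lie between -0.16 and 1.01 and those of bleogen pB1 between -0.09 and 0.36, with the EGF point further to the right in 44 of the 46 genes.

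The genes were well expressed before any treatment. Per length of transcript, the untreated mean FPKM ran from 4.51 for UTP15 to 836.4 for NPM1, with a median of 22 against 10.6 for all tested genes, and 42 of the 46 lay above the latter. The lowest expected count of any of these genes in any library was 294, for GAR1. The level before treatment did not order the rise: across the 46 genes, log2 FPKM in untreated cells and log2 fold change with EGF had a Pearson correlation of 0.03, a description over genes that share the same libraries.

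The core proteins of the box C/D snoRNPs, which carry out the ribose methylation of ribosomal RNA, were higher with EGF in all 3 cases. Among them 2 were called, against 15.1% of all tested genes. NOP56, a scaffold protein of the particle, had 184.2, 169.9 and 181.1 CPM (counts scaled for library size) in the untreated libraries, 306.1, 244.3 and 288.8 CPM with EGF, and 205.4, 242.5 and 212.3 CPM with bleogen pB1. The EGF libraries of NOP56 all lay above the others. The log2 fold change was 0.65 with an SE of 0.09, and edgeR gave an adjusted p of 2.5e-05. Values after ± are SEs from the same fit unless another error is named. Its partner NOP58 had 100.5, 98.2 and 101.9 CPM untreated, 155.8, 128.5 and 144.3 CPM with EGF and 106.1, 125.2 and 112.0 CPM with bleogen pB1. NOP58 rose by 0.51 ± 0.08 on the log2 scale (edgeR adjusted p = 7.8e-05), just past the fold limit. FBL, fibrillarin, is the methyltransferase of the particle and had the highest FPKM of the group, 108.1 in untreated cells. Its 3 untreated libraries held 118.3, 118.4 and 115.9 CPM, the EGF libraries 152.7, 131.1 and 140.7 CPM, and the bleogen pB1 libraries 133.6, 128.1 and 129.6 CPM. FBL passed the adjusted p (edgeR, 0.0017) but its log2 fold change of 0.27 ± 0.06 was short of the limit.

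The box H/ACA snoRNPs convert uridines to pseudouridine. Of their 3 core proteins listed here 2 were called, against 15.1% of all tested genes. DKC1, dyskerin, the pseudouridine synthase, had 121.8, 122.8 and 137.6 CPM untreated, 226.5, 190.1 and 215.9 CPM with EGF and 150.5, 168.2 and 154.2 CPM with bleogen pB1. Its 3 groups did not overlap, and it rose by 0.73 ± 0.08 on the log2 scale with EGF (edgeR adjusted p = 3.8e-06). GAR1, a smaller core protein, had 16.2, 14.4 and 18.1 CPM untreated, 25.6, 22.9 and 22.8 CPM with EGF and 16.2, 18.9 and 17.2 CPM with bleogen pB1. The EGF libraries of GAR1 stood apart (log2 fold change 0.55 ± 0.10), whereas those of bleogen pB1 overlapped the untreated ones. NHP2, the RNA-binding core protein with the highest FPKM of this group (87.0 untreated), had 64.9, 72.1 and 67.7 CPM untreated, 88.4, 94.4 and 94.0 CPM with EGF and 77.1, 83.1 and 78.0 CPM with bleogen pB1. All 3 groups of NHP2 were separate, but its log2 fold change with EGF, 0.44 ± 0.06, was under the fold limit (edgeR adjusted p = 4.6e-05).

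The abundant nucleolar proteins NPM1, NCL and NOLC1 were all called higher with EGF, against 15.1% of all tested genes. NPM1, nucleophosmin, a chaperone of the nucleolus, had 1065.0, 1109.8 and 1192.2 CPM untreated, 1829.4, 1524.8 and 1695.2 CPM with EGF and 1180.2, 1367.4 and 1208.2 CPM with bleogen pB1. Its log2 fold change with EGF was 0.58 ± 0.08 (edgeR adjusted p = 3.5e-05). NPM1 has many processed pseudogenes, so its counts depend on how shared reads were split. NCL, nucleolin, which binds the precursor RNA, had 933.3, 872.8 and 954.1 CPM untreated, 1526.3, 1264.2 and 1374.7 CPM with EGF and 1038.2, 1224.6 and 1122.0 CPM with bleogen pB1. NCL rose by 0.59 ± 0.08 on the log2 scale, and its groups did not overlap. NOLC1, a phosphoprotein that accompanies snoRNPs, had 275.6, 253.6 and 280.8 CPM untreated, 455.6, 401.5 and 413.2 CPM with EGF and 297.2, 365.7 and 338.0 CPM with bleogen pB1. It rose by 0.65 ± 0.08 on the log2 scale with EGF (edgeR adjusted p = 1.3e-05).

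**Figure D2:**
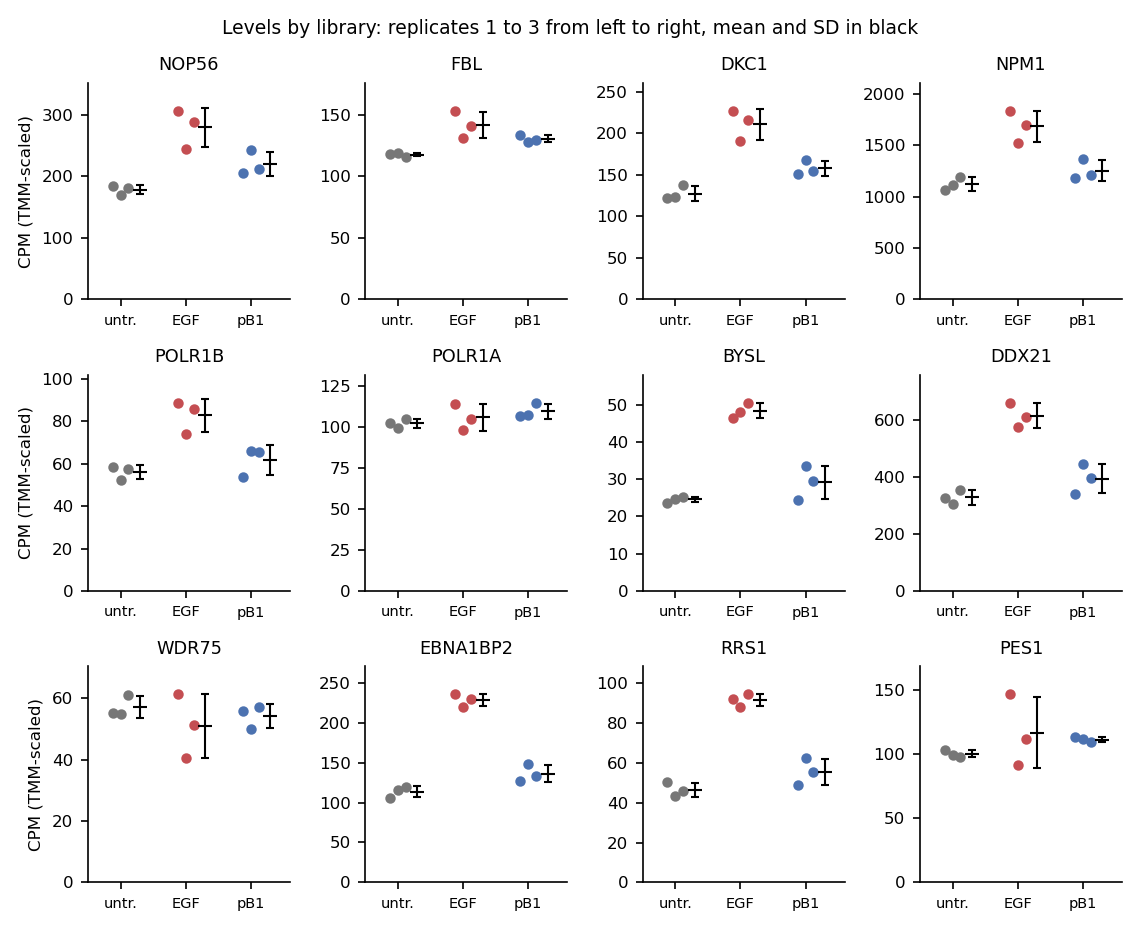
CPM of 12 of the genes in each library (grey, untreated; red, EGF; blue, bleogen pB1; replicates 1 to 3 from left to right), with the group mean and SD in black, on axes that start at 0. EBNA1BP2, RRS1, BYSL and DDX21 show EGF libraries far above the other groups, whereas those of WDR75, PES1 and POLR1A overlap the untreated libraries.

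The 4 RNA polymerase I subunits among the 46 genes and the nucleolar transcription regulator MYBBP1A had a median log2 fold change of 0.42. Among them 2 were called higher, against 15.1% of all tested genes, and 4 were higher at the adjusted p alone, against 32.4%. MYBBP1A had 148.9, 141.1 and 147.2 CPM untreated, 224.4, 207.6 and 214.5 CPM with EGF and 153.7, 177.0 and 175.2 CPM with bleogen pB1. MYBBP1A rose by 0.56 ± 0.06 on the log2 scale (edgeR adjusted p = 6.9e-06). POLR1B, the second-largest subunit, had 58.4, 52.4 and 57.7 CPM untreated, 88.8, 74.2 and 85.8 CPM with EGF and 53.7, 65.8 and 65.7 CPM with bleogen pB1. It rose by 0.56 ± 0.09 with EGF, and its bleogen pB1 libraries overlapped the untreated ones. POLR1E had 32.2, 34.5 and 36.1 CPM untreated, 47.8, 42.0 and 48.1 CPM with EGF and 32.1, 38.8 and 38.5 CPM with bleogen pB1, with a log2 fold change of 0.42 ± 0.09 for EGF that was short of the limit. POLR1C, a subunit shared with RNA polymerase III, had a log2 fold change of 0.31 ± 0.09. The largest subunit, POLR1A, which holds the catalytic centre, had 102.7, 99.6 and 104.8 CPM untreated and 114.5, 98.3 and 105.3 CPM with EGF, and these overlapped (log2 fold change 0.05 ± 0.06, edgeR adjusted p = 0.51). The sign of the POLR1A value was negative under upper-quartile or no scaling, on the FPKM scale, and without EGF replicate 1.

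The genes of the small subunit processome and of later 40S maturation formed the largest group, with 17 genes. Among them 11 were called higher, against 15.1% of all tested genes, and 15 were higher at the adjusted p alone, against 32.4%. BYSL, bystin, a 40S maturation factor, had 23.7, 24.6 and 25.3 CPM untreated, 46.5, 48.1 and 50.5 CPM with EGF and 24.5, 33.4 and 29.6 CPM with bleogen pB1. The EGF libraries of BYSL were all above the others, and their mean stood at 1.97 times the untreated level (log2 fold change 0.98 ± 0.10, edgeR adjusted p = 2.7e-06). DDX21, an RNA helicase of the nucleolus and the gene of this group with the highest FPKM (71.0 untreated), had 323.9, 304.2 and 353.9 CPM untreated, 658.8, 572.9 and 608.5 CPM with EGF and 340.9, 442.6 and 394.0 CPM with bleogen pB1. DDX21 rose 1.87-fold (log2 fold change 0.91 ± 0.09, edgeR adjusted p = 2.9e-06). RRP9, a protein of the U3 snoRNP, had 19.8, 18.1 and 21.9 CPM untreated, 37.2, 36.8 and 35.5 CPM with EGF and 20.2, 24.1 and 21.7 CPM with bleogen pB1. The bleogen pB1 libraries of RRP9 overlapped the untreated ones, and EGF gave a log2 fold change of 0.87 ± 0.09. The other 8 called genes were UTP15, TSR1, WDR43, LTV1, RRP12, NOP14, DDX10 and NOC4L, with log2 fold changes from 0.85 for UTP15 to 0.54 for NOC4L. UTP15, WDR43 and NOP14 act in the early processome, whereas LTV1, TSR1 and RRP12 accompany the 40S particle in its later steps. UTP20, UTP14A, NAT10 and DDX52 passed the adjusted p with log2 fold changes of 0.50, 0.49, 0.42 and 0.36, under the limit of 0.5 in each case (UTP20, 0.4966). NAT10 is the enzyme that acetylates cytidines of the small subunit RNA.

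The remaining small subunit genes, chosen for description after their values were seen, did not pass. NOB1, the nuclease that makes the last cut of the small subunit RNA, had 97.8, 102.1 and 98.7 CPM untreated, 114.9, 104.6 and 103.7 CPM with EGF and 94.0, 94.0 and 92.7 CPM with bleogen pB1. The EGF libraries of NOB1 were above the untreated ones, and those of bleogen pB1 were below, but neither comparison passed (EGF: log2 fold change 0.11 ± 0.06, edgeR adjusted p = 0.093; bleogen pB1: -0.09 ± 0.06, edgeR adjusted p = 0.38). WDR75, a processome protein, was the only one of the 46 with a negative EGF value. It had 55.2, 55.0 and 61.2 CPM untreated and 61.3, 40.6 and 51.2 CPM with EGF, so the EGF libraries spanned the untreated range (log2 fold change -0.16 ± 0.12, edgeR adjusted p = 0.24). This value rested on single libraries: without EGF replicate 1 it was -0.31 (edgeR adjusted p = 0.014) and without EGF replicate 2 it was -0.02 (edgeR adjusted p = 0.89).

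The 60S assembly genes had the highest median log2 fold change of the 6 role groups with EGF, 0.69, beside 0.65 for the small subunit genes. Differences between role groups were not tested. Of the 15 genes 10 were called, against 15.1% of all tested genes. EBNA1BP2, a 60S assembly factor, showed the largest rise of all 46 genes, with 105.9, 115.7 and 119.6 CPM untreated, 235.6, 220.0 and 229.6 CPM with EGF and 127.1, 148.3 and 133.5 CPM with bleogen pB1. Its 3 groups were separate, EGF raised it 2.01-fold (log2 fold change 1.01 ± 0.07, edgeR adjusted p = 1e-07), and it was the only one of the 46 past a limit of 1 on the log2 scale. RRS1, which helps to place the 5S particle in the 60S subunit, had 50.5, 43.5 and 45.8 CPM untreated, 92.1, 88.2 and 94.5 CPM with EGF and 48.9, 62.3 and 55.3 CPM with bleogen pB1. RRS1 rose 1.97-fold with EGF (log2 fold change 0.97 ± 0.09, edgeR adjusted p = 9.4e-07). NOC2L, NIP7, NOP16, FTSJ3, RRP1, NOP2 and RRP1B were also called, with log2 fold changes between 0.67 for RRP1B and 0.89 for NOC2L. NOP2 is a methyltransferase of the large subunit RNA, and NOC2L and NIP7 bind early 60S precursors. GNL3 (nucleostemin), NOC3L, WDR12 and PPAN passed the adjusted p with log2 fold changes of 0.44, 0.44, 0.43 and 0.39. PPAN shares sequence with the read-through gene PPAN-P2RY11, which was counted separately and rose with EGF by 0.58 on the log2 scale, so the value of PPAN is uncertain.

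The PeBoW complex, which consists of PES1, BOP1 and WDR12 and acts in the processing of the large subunit RNA, was not uniform in its transcripts. BOP1 had 43.0, 42.7 and 43.0 CPM untreated, 89.5, 72.3 and 80.6 CPM with EGF and 48.2, 62.5 and 55.1 CPM with bleogen pB1, and it rose 1.88-fold with EGF (log2 fold change 0.91 ± 0.10, edgeR adjusted p = 3.9e-06). WDR12 had a log2 fold change of 0.43 ± 0.09. PES1, which was looked at after its values were seen, had 103.2, 99.5 and 97.9 CPM untreated but 146.4, 91.3 and 111.9 CPM with EGF, the widest spread between EGF libraries of the 3 genes. The log2 fold change of PES1 was 0.22 ± 0.12 (edgeR adjusted p = 0.13), and it was 0.37 without EGF replicate 2 (edgeR adjusted p = 0.0024) and 0.02 without EGF replicate 1 (edgeR adjusted p = 0.81). Differences between the genes of the complex were not tested.

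The EGF libraries differed in how far the genes had risen, but all stood apart from the untreated ones. As the median over the 46 genes of the log2 ratio to the untreated mean, the 3 EGF libraries had 0.70, 0.49 and 0.60, the untreated libraries -0.002, -0.04 and 0.05, and the bleogen pB1 libraries 0.08, 0.33 and 0.21. EGF replicate 1 was the highest of its group in 36 genes and EGF replicate 2 the lowest in 34. Together the 46 genes took 0.537 to 0.583% of all counts in untreated cells, 0.762 to 0.873% with EGF and 0.604 to 0.711% with bleogen pB1.

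**Figure D3:**
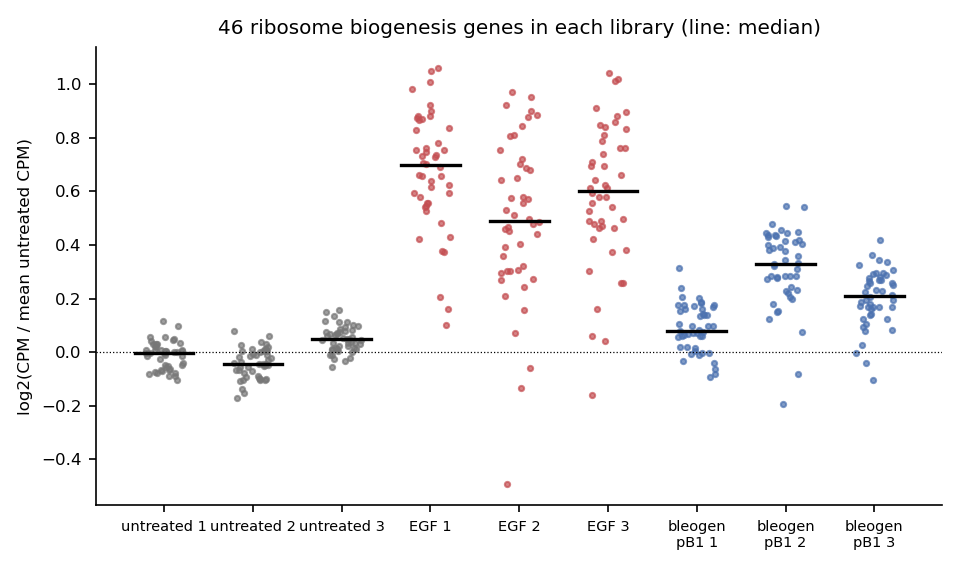
Each point is 1 of the 46 genes in 1 library, as the log2 ratio of its CPM to the mean of the 3 untreated libraries, and the black line is the median of the library. The EGF medians are 0.70, 0.49 and 0.60, and the bleogen pB1 medians are 0.08, 0.33 and 0.21, with replicate 1 nearest to the untreated libraries.

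With bleogen pB1 44 of the 46 fold changes were above 0, by smaller amounts, and none of the 46 passed the DEG rule. By that rule 0 were higher (0.218% of all tested genes) and 0 lower (1.26%), with DESeq2 as with edgeR. At the adjusted p alone, edgeR had 4 higher (1.56% of tested genes) and 0 lower (2.55%), while DESeq2 had 17 higher. For DESeq2 the share of all tested genes at this limit was not counted. At an unadjusted p under 0.05, 30 genes were higher, against 11.7% of all tested genes, and 0 were lower, against 10.5%. The median log2 fold change was 0.22 (1.16-fold), beside -0.001 over all tested genes. In 28 genes all 3 bleogen pB1 libraries lay above all 3 untreated ones, against 14.4% of tested genes.

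The 4 genes past the adjusted p with bleogen pB1 were DKC1, NOLC1, TSR1 and RRP1B, each with a log2 fold change of 0.30 or 0.31 ± 0.07 or 0.08. DKC1 (edgeR adjusted p = 0.044), NOLC1 (0.05), TSR1 (0.040) and RRP1B (0.042) were close to the limit. TSR1, a late 40S factor, had 132.1, 127.3 and 141.0 CPM untreated and 150.6, 179.6 and 163.8 CPM with bleogen pB1. RRP1B, a 60S factor, had 71.6, 69.1 and 72.9 CPM untreated and 81.1, 94.8 and 87.4 CPM with bleogen pB1. In both genes the groups did not overlap and bleogen pB1 replicate 1 was the lowest treated library. Larger estimates that did not pass were those of BOP1 (0.36 ± 0.10, edgeR adjusted p = 0.053), NOP16 (0.36 ± 0.11, edgeR adjusted p = 0.093), WDR43 (0.33 ± 0.09, edgeR adjusted p = 0.052) and PPAN (0.32 ± 0.08, edgeR adjusted p = 0.054).

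The count at the adjusted p alone, of genes close to the limit, changed with the omission of any 1 of the 6 compared libraries. Bleogen pB1 replicate 1 was the lowest of its group in 38 of the 46 genes and replicate 2 the highest in 41. Without replicate 1 of bleogen pB1, 25 genes passed. Without replicate 2 or 3 of bleogen pB1, or without any one of the 3 untreated libraries, 0 passed. The share of all tested genes at the adjusted p alone was not counted for these omissions. By the DEG rule, 100 of 12526 tested genes were higher without bleogen pB1 replicate 1, against 27 of 12394 with all libraries. None of the 46 was among them. The number of genes above all untreated libraries was 29, 44 and 40 in the 3 bleogen pB1 libraries. The share of all tested genes was not counted for single libraries, so these counts have no background beside them.

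EGF and bleogen pB1 were also compared directly, although at different concentrations (10 nM and 1 µM), so the ligand and the concentration cannot be told apart. By the DEG rule, 11 of the 46 were higher with EGF than with bleogen pB1, against 10.8% of all tested genes, and 0 were lower, against 18%. At the adjusted p alone 39 were higher (28.5% of tested genes) and 0 lower (29.7%), and no gene was lower at an unadjusted p under 0.05 (31.9%) or by DESeq2. The EGF libraries lay above all bleogen pB1 libraries in 38 genes, against 30.7% of tested genes, and the median log2 difference was 0.37. The 11 genes were RRP9, RRP12, UTP15, DDX21, BYSL, NOC2L, RRS1, BOP1, FTSJ3, EBNA1BP2 and NIP7, all of which were also called for EGF against untreated cells, a comparison that shares the EGF libraries. EBNA1BP2 had the largest difference (0.74 ± 0.07, edgeR adjusted p = 2e-06), followed by BYSL (0.73 ± 0.10) and RRP9 (0.73 ± 0.09). The count of 11, beside 1339 of 12394 tested genes, was 17 without EGF replicate 2 (1321 of 12498 tested genes). It was 20 without bleogen pB1 replicate 2 (1634 of 12521).

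The 3 groups kept one order in most genes. The mean CPM of bleogen pB1 lay above that of untreated and below that of EGF cells in 43 of the 46, against 31.3% of all tested genes. In 22 the 3 groups followed each other from untreated to bleogen pB1 to EGF with no overlap of libraries, against 6.81% of tested genes. In POLR1A and WDR75 the bleogen pB1 mean was above that of EGF, and in NOB1 and WDR75 it was below that of untreated cells. NIP7 and RRP9 had almost the untreated level with bleogen pB1 (log2 fold changes 0.11 ± 0.07 and 0.14 ± 0.09) beside large values with EGF (0.82 ± 0.07 and 0.87 ± 0.09). The PPAN entry had similar values with both treatments, 0.32 ± 0.08 with bleogen pB1 and 0.39 ± 0.08 with EGF. Its direct difference between them was 0.07 ± 0.08 (edgeR adjusted p = 0.49). The read-through gene PPAN-P2RY11, which shares sequence with PPAN, had 0.58 with EGF and 0.21 with bleogen pB1 (edgeR adjusted p = 0.17). Directly compared, PPAN-P2RY11 was higher with EGF by 0.37 (edgeR adjusted p = 0.0027). How shared reads were split between the entries is not known, so the likeness in PPAN is uncertain.

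Genes of small nucleolar RNAs (snoRNAs) lie between the ends of some of these genes, on the same strand. Whether they lie in introns was not checked. By the GENCODE annotation, 8 of the 46 (17.4%) contain snoRNA genes, against 1.6% of the 11965 tested protein-coding genes with an entry. They are GNL3 with 6, NOP56 with 5, NOP58 with 4, NCL and WDR43 with 3 each, and DKC1, TSR1 and PPAN with 2 each. The median log2 fold change of the host genes with EGF was 0.62 (range 0.39 to 0.79), and that of the other genes was 0.57. The libraries were made from polyadenylated RNA, so the snoRNAs themselves were not measured.

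A wider list of 130 further ribosome biogenesis genes was also mostly higher with EGF, with a smaller median. With EGF, 49 were called higher (37.7%, against 15.1% of all tested genes) and 3 lower (2.31%, against 21.8%). At the adjusted p alone 109 were higher (83.8%, against 32.4%) and 5 lower (3.85%, against 33.6%), and the median log2 fold change was 0.44. With bleogen pB1, 0 were called in either direction by edgeR and the median was 0.13. The 2 genes higher with bleogen pB1 at the adjusted p alone, RIOK1 and RRP7A, were 1.54% of the list, near the 1.56% of all tested genes. Directly compared, 24 were called higher with EGF than with bleogen pB1 (18.5%, against 10.8%) and 0 lower (against 18%). By role, 9 of 16 further genes of RNA polymerase I transcription were called higher with EGF, 4 of 10 further snoRNP genes, 17 of 41 small subunit genes, 16 of 49 large subunit genes and 3 of 14 genes of the exosome and exonucleases. In the same order, the median log2 fold changes with EGF were 0.53, 0.49, 0.47, 0.42 and 0.40. Large subunit genes were thus not the highest in the wider list.

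The largest rises of the wider list were in LYAR, a nucleolar growth regulator, POLR1G, an RNA polymerase I subunit listed under its older symbol CD3EAP, and RIOK1, a kinase of 40S maturation. LYAR went from 27.3 ± 1.84 (SD, n = 3) to 63.2 ± 9.88 CPM with EGF (log2 fold change 1.21 ± 0.13). POLR1G had a log2 fold change of 1.04 ± 0.11 and RIOK1 of 1.03 ± 0.10. The 3 genes called lower were RIOK2, a related kinase (-0.67 ± 0.19, edgeR adjusted p = 0.0066), NOP53, a 60S factor (-0.63 ± 0.09, edgeR adjusted p = 5.3e-05), and UBTF, which binds the ribosomal DNA for RNA polymerase I (-0.56 ± 0.11, edgeR adjusted p = 0.00044). UBTF had 103.1 ± 5.53 CPM untreated, 70.0 ± 12.7 CPM with EGF and 97.5 ± 6.76 CPM with bleogen pB1 (SD, n = 3).

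The ribosomal proteins are the structural parts that these factors assemble, and few of their genes were called changed with EGF. Of 79 cytosolic ribosomal protein genes, 0 were called higher, against 15.1% of all tested genes, and 1 lower (1.27%, against 21.8%), RPL36A at -0.53 on the log2 scale (edgeR adjusted p = 0.0014). At the adjusted p alone, 5 were higher (6.33%, against 32.4% of all tested genes) and 35 lower (44.3%, against 33.6%), and the median log2 fold change was -0.17. The 5 higher were FAU (0.32), RPL6 (0.27), RPL23 (0.26), RPS7 (0.24) and RPL5 (0.15). With bleogen pB1 none was called and the median was -0.03. Ribosomal protein genes have many processed pseudogenes, so that their counts also depend on how shared reads were split.

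**Figure D4:**
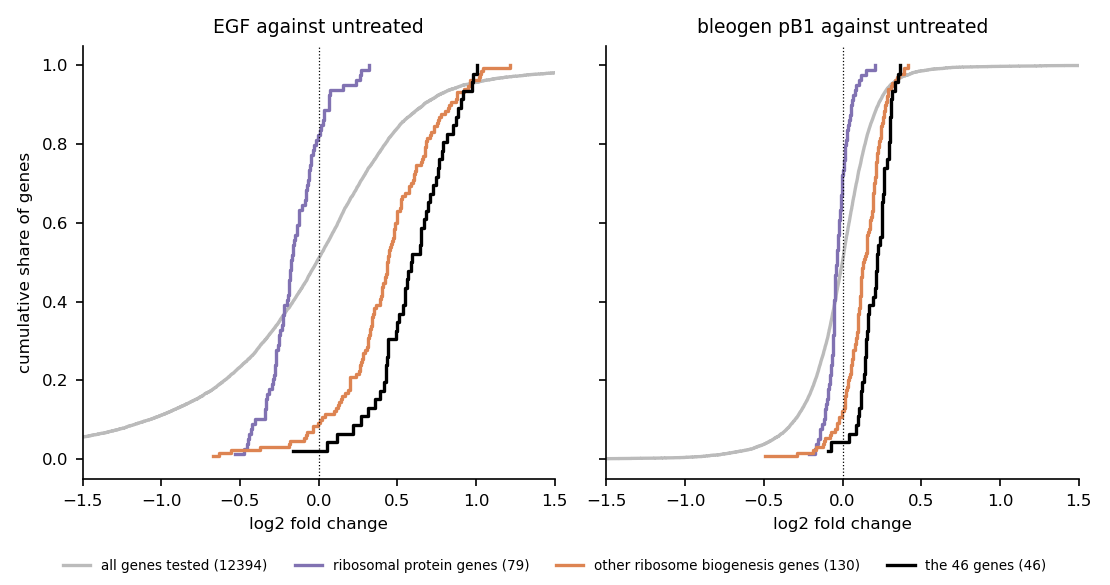
Cumulative share of genes by log2 fold change against untreated cells, for EGF (left) and bleogen pB1 (right), for the 46 genes (black), 130 other ribosome biogenesis genes (orange), 79 ribosomal protein genes (purple) and all 12394 tested genes (grey). The medians with EGF are 0.59, 0.44, -0.17 and -0.01, and the axis stops short of the most extreme genes.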

How the data were processed

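Total RNA of the 9 libraries was sequenced by BGI from oligo-dT, dUTP-based libraries and mapped by the authors to GRCh38.p12; the program that counted is not given in the sources used here. The authors deposited expected counts, which are per-gene estimates without depth scaling and sum to 20288417 to 21320994 in a library. The FPKM values deposited by the authors divide them by transcript length and library size. The transcript lengths deposited by the authors are other columns of the same tables.

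After rounding, these counts went into edgeR 4.0.16 (R 4.3.3) with filterByExpr, which kept 12394 genes, TMM factors, and a quasi-likelihood fit of 3 groups over all 9 libraries with Benjamini-Hochberg adjustment over all genes. SEs were derived from the log2 fold change and the F statistic. CPM are TMM-scaled, and FPKM served for levels between genes. The script was checked on simulated data. Alternatives were DESeq2 1.42.0, limma 3.58.1 on log2(FPKM + 1) and log2(FPKM + 0.1), other scaling and filters, other limits, a block for the replicate number and the omission of each library.

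The 46 genes and the other lists were chosen with earlier results of these data known. Per-library values were given for up to 3 genes per role with the largest change with EGF and for the gene with the highest FPKM. Outside this rule, they were also given for POLR1A, NOB1, WDR75 and PES1. The same holds for TSR1 and RRP1B, which passed the adjusted p with bleogen pB1. Of the other ribosome biogenesis genes, the 3 largest rises and falls were named. Promoter windows are from RefSeq and snoRNA positions from GENCODE release 44. Protein lengths and motifs were planned and not used here.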

Additional observations from a re-analysis of the deposited data

How the results depend on the processing

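The number of genes higher with EGF than in untreated cells was 30, beside 1875 of 12394 tested genes. With a library left out it ranged from 28 (without EGF replicate 1, 2001 of 12530 tested genes) to 35 (without EGF replicate 2, 1885 of 12498). It was 32 with DESeq2 (1963 of 16199 genes) and 22 with upper-quartile factors (1396 of 12394). At a log2 limit of 1 it was 1 (529 of 12394). Of the 30 genes, 22 were called in all 17 settings that kept the fold limit. The 8 lost in at least 1 setting were NOP58, GAR1, NCL, NPM1, POLR1B, MYBBP1A, NOC4L and DDX10. Upper-quartile factors moved the median of all tested genes to -0.12 and that of the 46 to 0.48. The labels share replicate numbers without saying that same-numbered libraries were handled together. Of 9 same-numbered pairs, 2 had a correlation of deviations over 0.1 (range -0.03 to 0.207). Differently numbered pairs ran from -0.253 to 0.163. Correlations over 3 libraries per group cannot settle whether the samples were paired, and the main fit did not pair them. With the replicate number as a block, 30 genes were called higher for EGF against untreated (1873 of 12394 tested genes). For bleogen pB1 0 were called (29 of 12394 higher, 157 lower), and 11 were higher for EGF against bleogen pB1 (1336 of 12394).

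With bleogen pB1 no alternative with the fold limit called any of the 46. The count at the adjusted p alone, 4 (1.56% of all tested genes were higher), was examined under alternatives chosen after seeing the data. It was 17 with DESeq2, 11 with edgeR on the 6 compared libraries, 10 with no scaling and 11 with no count filter. It was 7 with limma on log2(FPKM + 1), 0 with limma and no filter, 0 with the replicate block, and 0 to 25 with each library left out. The share of all tested genes was not counted under these alternatives, so these counts have no background beside them. For EGF against bleogen pB1 the count of 11 was 7 with limma on log2(FPKM + 1), with a filter (797 of 10961 genes) or without (826 of 16199). It was 39 at the adjusted p alone (3537 of 12394) and 0 at a log2 limit of 1 (436 of 12394). With a library left out it ran from 9 (without bleogen pB1 replicate 1, 1185 of 12526) to 20 (without bleogen pB1 replicate 2, 1634 of 12521). Of the 11 genes, 7 were called in all 17 settings. The causes were not tested.

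Signs changed in POLR1A, POLR1C, WDR75, PES1 and PPAN. POLR1A with EGF was -0.0544 with upper-quartile factors, -0.0072 with no scaling, -0.0100 with limma on log2(FPKM + 1) with and without a filter, -0.0113 with a pseudocount of 0.1 and -0.0061 (without EGF replicate 1) to 0.1098 with a library left out. POLR1C with bleogen pB1 was -0.0201 (without bleogen pB1 replicate 2) to 0.0809. For EGF against bleogen pB1 with a library left out, POLR1A was -0.1052 to 0.0108 and WDR75 -0.2363 to 0.0620, the highest without EGF replicate 2. In that comparison PES1 was -0.0205 with upper-quartile factors, -0.0040 with no scaling, -0.0430 with limma with and without a filter, -0.0443 with a pseudocount of 0.1 and -0.1245 (without EGF replicate 1) to 0.2263 with a library left out. PPAN was -0.0178, -0.0014, -0.0210, -0.0226 and -0.0105 to 0.1208 in the same order.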
